A study of Mus musculus with 126 samples.

Results

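The replication-dependent core histone genes encode the H2A, H2B, H3 and H4 proteins of the nucleosome, and their expression is described here in mouse embryonic stem cells with and without DNA methylation and with and without inhibition of histone deacetylases. Members were chosen by name alone, as every gene of the count table whose symbol starts with Hist, a cluster number and h2a, h2b, h3 or h4, so linker histone H1 genes were left out. The rule gave 62 of the 23420 genes in the table, 18 of class H2A, 19 of class H2B, 12 of class H3 and 13 of class H4. By cluster, 48 belong to Hist1 on chromosome 13 (21715763 to 23934851), 10 to Hist2 on chromosome 3 (96219916 to 96270192), 3 to Hist3 on chromosome 11 (58948911 to 58956674) and 1, Hist4h4, lies on chromosome 6 (136801553 to 136804431). Coordinates are those of the deposited table, in mm10.

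Replication-dependent histone genes are transcribed mainly in S phase, when new nucleosomes are assembled behind the replication fork. Their transcripts are as a rule not polyadenylated but end in a conserved stem-loop, which the stem-loop binding protein Slbp recognises, and they are removed when DNA synthesis stops. The genes lie in clusters, often as divergent H2A and H2B pairs that share the DNA between them, and the libraries of these cells were made from total RNA depleted of ribosomal RNA, which keeps transcripts without a poly(A) tail.

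The series has 126 samples, of which the 8 RNA-seq libraries were used. All cells carry the J1 strain label and were grown on gelatin in serum with leukaemia inhibitory factor. Wild type cells were compared with cells of genotype Dnmt1-/-, Dnmt3a-/-, Dnmt3b-/- (TKO), which lack the enzymes that set and maintain DNA methylation. Each genotype was kept for 36 h with 5 ng/µl Trichostatin A (TSA), an inhibitor of histone deacetylases, or with 0.0033% of its solvent DMSO, giving 4 groups of 2 libraries that the series describes as biological replicates. The labels do not say whether TKO cells come from 1 clone, nor whether replicates were separate cultures, so p-values measure the spread between these libraries. In the test, the spread of each gene was drawn towards that of other genes of similar level.

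Libraries held 13280631 to 15542527 counts, and 3 counts corresponded to 0.183 to 0.243 CPM, a normalised read count relative to the library total after TMM scaling, which centres the bulk of genes. Dnmt1 ran from 359.9 to 463.8 CPM in wild type and from 123.3 to 134.4 in TKO, Dnmt3a from 151.5 to 236.4 and from 25.9 to 39.1, and Dnmt3b from 343.2 to 595.4 and from 43.6 to 76.1, so all 3 were lower in every TKO library. All 12 embryonic stem cell markers examined were detected, with summed levels of 2261 to 5522 CPM, and 10 of them fell with TSA in each genotype. Summed markers of mesenchymal cells were at 236 to 502 CPM in wild type and 22.2 to 58.3 in TKO. Those of trophoblast were at 756.7 and 505.6 CPM in wild type cells with DMSO and 1338 and 1229 with TSA, and in TKO at 89.7 and 129.5 with DMSO and 328.5 and 376.1 with TSA. With TSA, 6 of 6 trophoblast markers rose in wild type and 5 of 6 in TKO, while 4 of 4 neural markers fell in wild type and 3 of 4 in TKO. Of 9 tested mesenchymal markers, 4 rose and 2 fell in wild type and 7 rose in TKO. Among all genes tested, 27.0% rose and 25.9% fell with TSA in wild type, and 30.8% and 27.9% in TKO. No marker of these lists was at 0 in all libraries, and the part of these markers in the results below was not tested. In RNA from whole cultures, fewer cells in S phase and less histone RNA per cell cannot be told apart.

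Promoter sequences show what these genes share and where they differ. RefSeq (GRCm38.p6, the build that mm10 names) gave 61 of the 62 members a single matching gene and 54 of them a single promoter. In the 250 bases before the start, the octamer ATTTGCAT, the site of POU factors such as Pou2f1, was present on either strand in 13 of 54 members (24.1%), namely 7 of 17 H2A, 6 of 15 H2B, 0 of 10 H3 and 0 of 12 H4 promoters, and in 1.60% of all 32851 mouse promoters in the table. The letters CCAAT, the site of NF-Y, were present in 43 of 54 members (79.6%) against 33.9% of all promoters, in 17 of 17 H2A and 15 of 15 H2B promoters but in 8 of 10 H3 and 3 of 12 H4 promoters. The TATA box letters TATAAA were in 25 of 54 (46.3%) against 12.4%. Divergent neighbours share part of these windows, so the H2A and H2B counts are not independent, and a match is a description of the letters, not a site shown to be used.

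The windows printed here were chosen because the results turn on their genes, and each reads 5′ to 3′ on the strand of the gene named. In the first 4, capitals mark every octamer (ATTTGCAT, or ATGCAAAT on the other strand), CCAAT (or ATTGG) and TATAAA (or TTTATA). The window of Hist1h2aa, at chr13:23934187-23934436, lies within the 280 bases between the starts of Hist1h2aa and Hist1h2ba, the testis-type pair that rose with TSA. The interval between Hist3h2bb-ps and Hist3h2a, at chr11:58954513-58954684, is 172 bases long. That between Hist2h2ac (minus strand) and Hist2h2be, at chr3:96220881-96221071, is 191 bases long. The 250-base window of Hist2h2ac counted above extends further, to 96221130, and holds 1 octamer that the printed interval does not. Hist1h2ab, at chr13:23750838-23751087, was the member with the largest fall in wild type.
Hist1h2aa: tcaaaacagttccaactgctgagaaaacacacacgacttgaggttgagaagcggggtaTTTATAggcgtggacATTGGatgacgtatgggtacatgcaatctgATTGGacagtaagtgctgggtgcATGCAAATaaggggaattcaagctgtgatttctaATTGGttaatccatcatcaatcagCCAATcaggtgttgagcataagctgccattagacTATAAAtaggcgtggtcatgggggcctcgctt
Hist3h2bb-ps and Hist3h2a: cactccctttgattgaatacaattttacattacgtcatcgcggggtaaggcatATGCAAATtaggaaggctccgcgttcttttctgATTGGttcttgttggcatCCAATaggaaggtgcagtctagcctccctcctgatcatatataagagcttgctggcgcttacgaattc
Hist2h2ac and Hist2h2be: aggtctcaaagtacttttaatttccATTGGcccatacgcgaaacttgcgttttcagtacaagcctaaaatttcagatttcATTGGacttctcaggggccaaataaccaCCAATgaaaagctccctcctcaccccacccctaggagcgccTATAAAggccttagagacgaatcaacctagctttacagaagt
Hist1h2ab: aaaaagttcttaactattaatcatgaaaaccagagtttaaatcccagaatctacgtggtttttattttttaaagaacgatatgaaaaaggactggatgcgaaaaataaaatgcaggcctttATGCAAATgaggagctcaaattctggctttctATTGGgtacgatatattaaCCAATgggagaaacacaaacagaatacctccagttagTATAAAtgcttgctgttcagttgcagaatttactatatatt

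In the remaining windows capitals mark CG dinucleotides, the sites of DNA methylation, in 2 H3 genes of the Hist2 cluster. Hist2h3b, at chr3:96268404-96268653, has 4 CG and a pair of CCAAT. Hist2h3c2, at chr3:96239128-96239377 (minus strand), has 20 CG and none of the 3 motifs. Over the 54 members the number of CG in the window ran from 2 to 34 with a median of 9, against a median of 6 over all promoters.
Hist2h3b: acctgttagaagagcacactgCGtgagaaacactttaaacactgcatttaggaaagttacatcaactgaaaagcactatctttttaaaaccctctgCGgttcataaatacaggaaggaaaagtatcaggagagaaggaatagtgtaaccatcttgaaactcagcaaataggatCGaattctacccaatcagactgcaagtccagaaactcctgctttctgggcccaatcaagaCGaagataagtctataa
Hist2h3c2: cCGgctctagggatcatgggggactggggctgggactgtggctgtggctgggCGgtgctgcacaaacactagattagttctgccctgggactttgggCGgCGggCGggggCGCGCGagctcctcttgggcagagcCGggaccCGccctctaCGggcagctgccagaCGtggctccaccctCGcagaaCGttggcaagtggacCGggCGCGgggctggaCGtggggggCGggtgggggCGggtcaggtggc

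Core histone transcripts were abundant. Counts assigned to the 62 genes made up 0.687% and 0.645% of all counts in the wild type DMSO libraries. A filter on low counts kept 55 members for testing, with mean levels over the 8 libraries from 3.63 to 760 CPM and a median of 78.9. The 7 that did not pass, Hist1h2bq, Hist1h2br, Hist1h2ao, Hist1h2ap, Hist1h4m, Hist2h2aa1 and Hist2h2aa2, had at most 2 counts in any library and 9 in all, and their annotated exons coincide in part or whole with those of another member. Their low counts cannot be read as low expression, since reads that fall on overlapping genes or on near-identical copies may not have been assigned.

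Hist2h2bb, an H2B gene, had the highest level, with a mean of 760 CPM or 12.7% of the member total, and also the highest level per kb of exon (1542 CPM per kb). Hist1h4d, an H4 gene, was next per length at 1098 CPM per kb. By counts alone Hist3h2a (350.1 CPM) and Hist4h4 (217.3 CPM) ranked 2 and 4, but their annotated exons are 1990 and 2879 bases long, and per kb they were at 175.9 and 75.5 and ranked 25 and 47. The highest H3 members were Hist1h3e at 181.0 CPM and Hist1h3f at 160.9, or 440.3 and 160.4 per kb.

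Most core histone genes were lower after TSA in wild type cells, while the testis-type pair of Hist1 and Hist3 genes were higher. Summed over all 62 genes, the level was 7322 and 6939 CPM in the wild type DMSO libraries and 5470 and 5358 in wild type TSA. TKO libraries had 6703 and 6524 CPM in DMSO and 5002 and 4766 in TSA. In each genotype both TSA libraries were below both DMSO libraries, with log2 ratios of the means of -0.40 in wild type and -0.44 in TKO. A summed level has no test.

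**Figure D1:**
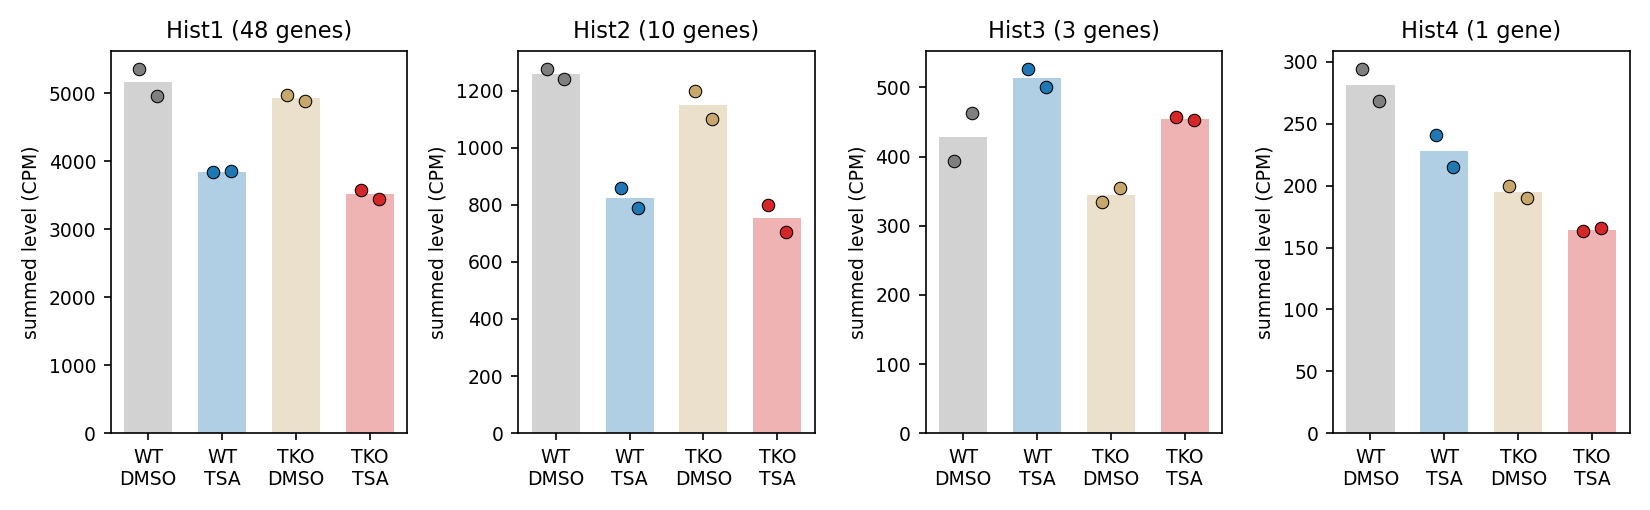
Summed normalised level (CPM, axis from 0) of the core histone genes of each cluster in the 4 groups, where points are libraries and bars their mean. Hist1, Hist2 and Hist4 are lower in TSA than in DMSO in each genotype, whereas Hist3 is higher, at 526.8 and 501 against 394 and 463.8 CPM in wild type.

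In wild type, 34 of the 55 tested members fell with TSA and 4 rose (edgeR, adjusted p below 0.05 over all 15822 genes tested), while 17 were not called. Of all genes tested, 25.9% were lower and 27.0% higher. The median log2 fold change of the members was -0.54, within a range of -0.85 to 0.99, and that of all genes was 0.01. By class, 9 of 14 H2A, 10 of 17 H2B, 7 of 12 H3 and 8 of 12 H4 members fell, with medians of -0.62, -0.55, -0.52 and -0.38. All 4 members that rose were H2A or H2B genes. Markers of stem cells, trophoblast, neural and mesenchymal cells also moved with TSA, as given above, and their part in these counts was not tested.

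Among the larger falls were those of the H2A gene Hist1h2ab and the H2B gene Hist1h2bb, neighbours on chromosome 13. Hist1h2ab was at 97.8 and 100.9 CPM in wild type cells with DMSO and 53.5 and 56.7 with TSA, and in TKO at 76.7 and 100.0 with DMSO and 48.8 and 43.7 with TSA. Every TSA library was below every DMSO library, and the log2 fold change with TSA was -0.85 ± 0.13 (SE) in wild type and -0.93 ± 0.13 in TKO, with edgeR adjusted p of 0.000302 and 0.000116. Hist1h2bb, the second most abundant H2B member, was at 211.9 and 226.2 CPM in wild type cells with DMSO and 127.9 and 123.4 with TSA, and in TKO at 198.1 and 185.8 with DMSO and 98.9 and 98.6 with TSA. Its groups did not overlap between treatments either, with log2 fold changes of -0.80 and -0.96.

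The Hist2 genes Hist2h2ac (H2A) and Hist2h3b (H3) fell by a similar amount. Hist2h2ac was at 127.9 and 115.9 CPM in wild type cells with DMSO and 73.6 and 62.2 with TSA, and in TKO at 104.5 and 92.1 with DMSO and 53.4 and 48.3 with TSA, with log2 fold changes with TSA of -0.84 and -0.95. Hist2h3b was at 54.1 and 53.6 CPM in wild type cells with DMSO and 32.5 and 27.9 with TSA, and in TKO at 49.9 and 42.7 with DMSO and 29.2 and 23.1 with TSA. Its log2 fold change with TSA was -0.83 in each genotype. Hist2h2bb, the most abundant member, fell by 0.56 and 0.57 on the log2 scale, from 942.4 and 927.3 CPM to 659.2 and 608.6 in wild type and from 916 and 843.5 to 631.4 and 555 in TKO. The H2A genes Hist1h2ak, Hist1h2af and Hist2h2ab also fell in wild type, by 0.62, 0.64 and 0.81, and in TKO, by 0.70, 1.02 and 1.06.

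Members that were not called in wild type included abundant H4 and H3 genes. Hist1h4d was at 478.6 and 349.8 CPM in wild type cells with DMSO and 350.8 and 349.5 with TSA, and in TKO at 334.7 and 263.1 with DMSO and 289.2 and 325.3 with TSA. Its 2 wild type DMSO libraries differed by more than the treatments did, and its log2 fold change was -0.24 ± 0.15 in wild type and 0.04 ± 0.15 in TKO, with edgeR adjusted p of 0.187 and 0.827. Hist1h4a was lower with TSA in wild type (-0.31, edgeR adjusted p 0.036) but not called in TKO (-0.12, adjusted p 0.385), and without any of the 4 wild type libraries in turn its adjusted p rose to between 0.064 and 0.132. Hist1h3e fell in wild type (-0.54, lost when libraries were scaled by total counts) and missed the threshold in TKO (-0.35, edgeR adjusted p 0.053), while Hist1h3f was at -0.17 in wild type (adjusted p 0.184) and fell in TKO (-0.56).

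With TSA in TKO, 37 of 55 members fell and 5 rose, against 27.9% and 30.8% of all genes tested, and 13 were not called. The median was -0.56, within a range of -1.09 to 1.95, and the median of all genes was 0.04. By class, 11 of 14 H2A, 10 of 17 H2B, 9 of 12 H3 and 7 of 12 H4 members fell. Of the members that fell, 29 were shared, which is 85.3% of those that fell in wild type and 78.4% of those that fell in TKO. Hist3h2ba, Hist3h2bb-ps, Hist1h2ba and Hist1h2aa rose in each genotype, and Hist3h2a was called in TKO and missed the threshold in wild type. The H2A gene Hist1h2ah had the lowest log2 fold change in TKO, -1.09 ± 0.22, and was at 98.2 and 98.0 CPM with DMSO and 59.1 and 33.4 with TSA, so its TSA libraries were below those with DMSO but far from each other. In wild type it was at 60.4 and 78.3 CPM in DMSO and 48.7 and 63.9 in TSA and was not called (-0.30, edgeR adjusted p 0.276).

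**Figure D2:**
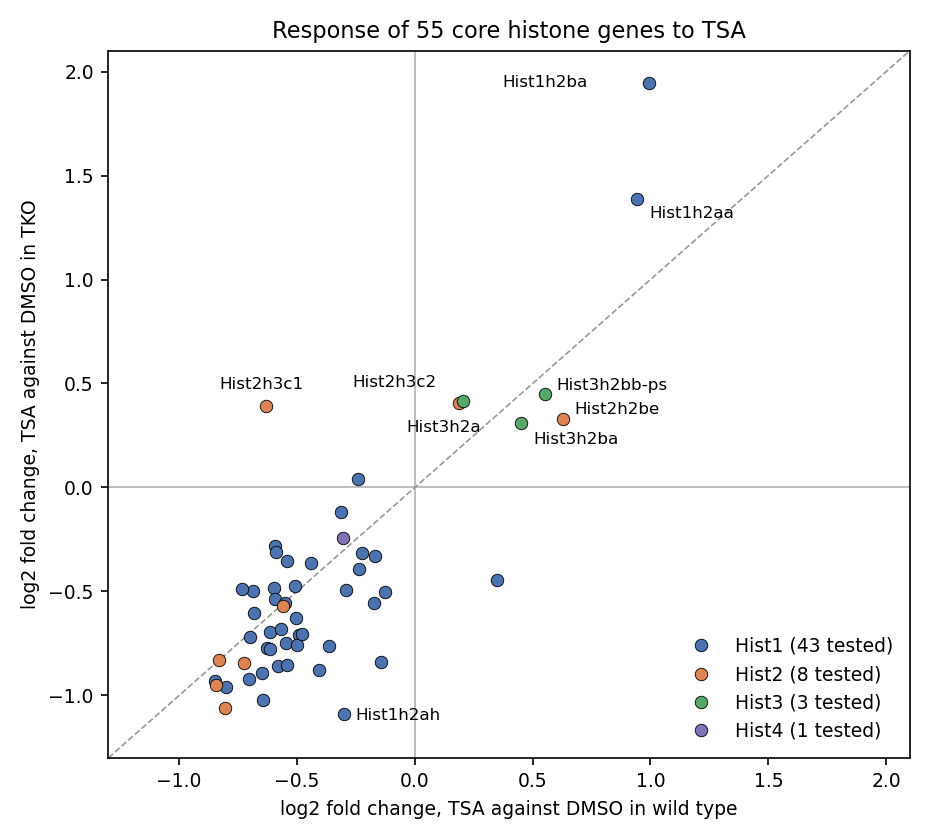
Log2 fold change with TSA in wild type (x axis) against that in TKO (y axis) for the 55 core histone genes tested, coloured by cluster, with the dashed line marking equal values. Most Hist1 and Hist2 genes lie at the lower left, between 0 and about -1, the 3 Hist3 genes are above 0 on each axis, and Hist1h2ba and Hist1h2aa stand apart at the upper right.

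The testis-type genes Hist1h2ba (H2B) and Hist1h2aa (H2A) encode variants of the male germ line and form a divergent pair at the end of the Hist1 cluster. Hist1h2ba, on chromosome 13 at 23933773 to 23934156, was at 35.7 and 57.4 CPM in wild type cells with DMSO and 82.4 and 102.5 with TSA, and in TKO at 24.1 and 33.3 with DMSO and 102.7 and 118.3 with TSA. All 4 TSA libraries were above all 4 DMSO libraries. Its log2 fold change with TSA was 0.99 ± 0.21 (SE) in wild type and 1.95 ± 0.22 in TKO, with edgeR adjusted p of 0.00237 and 2.9e-05. Hist1h2aa, at 23934462 to 23934851, was at 40.2 and 50.5 CPM in wild type cells with DMSO and 81.5 and 92.8 with TSA, and in TKO at 30.2 and 44.7 with DMSO and 100.4 and 95.1 with TSA. Again no TSA library overlapped a DMSO library, and the log2 fold changes were 0.94 ± 0.17 and 1.39 ± 0.17, with edgeR adjusted p of 0.00089 and 5.5e-05. These calls held in every alternative run.

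Within each library, where the scaling plays no part, the testis-type pair took 3.49 and 5.12 counts per 100 counts of the other Hist1 H2A and H2B genes in wild type DMSO and 11.1 and 13.4 in wild type TSA. In TKO the ratio was 2.53 and 3.72 in DMSO and 15.2 and 17.3 in TSA. Hist1h1t, the testis-type linker histone gene of the same cluster and no member, also rose with TSA, with log2 fold changes of 1.67 in wild type and 0.76 in TKO (edgeR adjusted p 0.000278 and 0.0111). Of 5 germ cell marker genes, 3 rose with TSA in each genotype, while Ddx4 was not called in wild type (-0.16) and fell by 1.25 in TKO (edgeR adjusted p 0.00027). Among all genes tested, 27.0% rose in wild type and 30.8% in TKO. The summed level of the 5 was 61.8 and 88.1 CPM in wild type cells with DMSO and 130.9 and 177.4 with TSA, and in TKO 193.4 and 215.1 with DMSO and 372.5 and 353.6 with TSA. Their part in the result was not tested.

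Hist3 was the cluster whose sum was higher with TSA. Hist3h2bb-ps, named as an H2B pseudogene, was at 19.6 and 22.8 CPM in wild type cells with DMSO and 32.3 and 29.6 with TSA, and in TKO at 15.7 and 18.2 with DMSO and 23.3 and 22.8 with TSA. Hist3h2ba (H2B) was at 60.2 and 59.8 CPM in wild type cells with DMSO and 89.6 and 74.4 with TSA, and in TKO at 49.4 and 46.1 with DMSO and 57.8 and 60.7 with TSA. Hist3h2a (H2A) was at 314.2 and 381.2 CPM in wild type cells with DMSO and 404.8 and 397 with TSA, and in TKO at 268.7 and 289.7 with DMSO and 375.7 and 369.6 with TSA. For each gene both TSA libraries were above both DMSO libraries of the same genotype. The log2 fold changes in wild type were 0.55 ± 0.14 (SE) for Hist3h2bb-ps, 0.45 ± 0.11 for Hist3h2ba and 0.21 ± 0.10 for Hist3h2a, of which the last was not called (edgeR adjusted p 0.00611, 0.00546 and 0.107). In TKO they were 0.45 ± 0.14, 0.31 ± 0.11 and 0.42 ± 0.10, with edgeR adjusted p of 0.0167, 0.0322 and 0.00456.

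The Hist3 calls are thin. Without TKO DMSO replicate 1 none of the 3 was called in TKO, with edgeR adjusted p of 0.0525 to 0.139. Hist3h2ba and Hist3h2bb-ps were also lost without either TKO TSA library, and Hist3h2ba without TKO DMSO replicate 2 (edgeR adjusted p up to 0.143 and 0.176). In wild type Hist3h2ba was lost without TSA replicate 1 (edgeR adjusted p 0.0773), and Hist3h2a was called when libraries were scaled by total counts. Hist3 gave 7.35 and 9.34 counts per 100 counts of Hist1 in wild type cells with DMSO and 13.7 and 13.01 with TSA, and in TKO 6.72 and 7.25 with DMSO and 12.8 and 13.2 with TSA, so the TSA libraries were apart from the DMSO libraries in this ratio too.

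**Figure D3:**
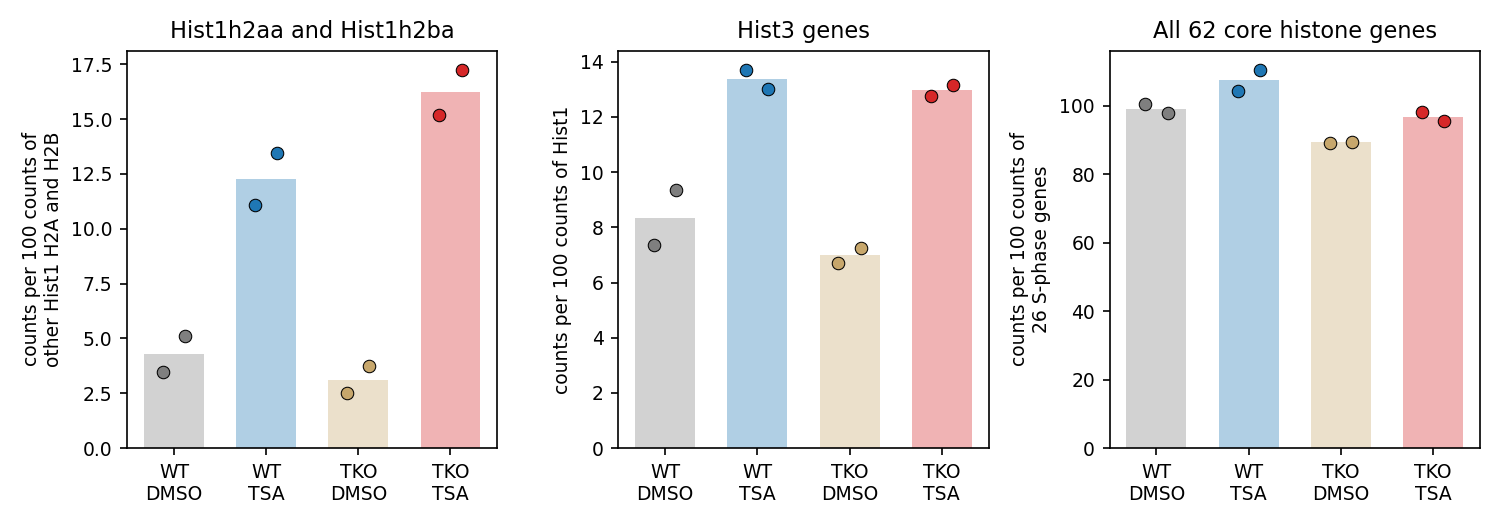
Ratios of counts within each library, with points for libraries and bars for their mean (axes from 0), for the testis-type pair against other Hist1 H2A and H2B genes, Hist3 against Hist1, and all 62 core histone genes against 26 S-phase genes. The first ratio is 2.53 to 5.12 in DMSO and 11.1 to 17.3 in TSA. The last runs from 89.2 to 110.5 and is higher with TSA than with DMSO in each genotype.

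The 2 Hist1 members that rose with TSA lie together at the end of the cluster, so position cannot be told apart from belonging to this pair. Taking gaps over 100 kb as borders, the 48 members form 4 blocks on chromosome 13. With TSA, 25.9% of all genes tested fell in wild type and 27.9% in TKO, while 27.0% and 30.8% rose. With TSA in wild type, 9 of 12 tested members of the first block, 1 of 5 of the second and 18 of 24 of the third fell, and 8, 4 and 19 fell in TKO. Hist1h2ba and Hist1h2aa make up the fourth block, 171386 bases beyond the third, and no member of the first 3 blocks rose in either genotype. The second block, of 5 genes from 22035166 to 22043610 that include Hist1h2ah, had medians of -0.30 in wild type and -0.71 in TKO.

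**Figure D4:**
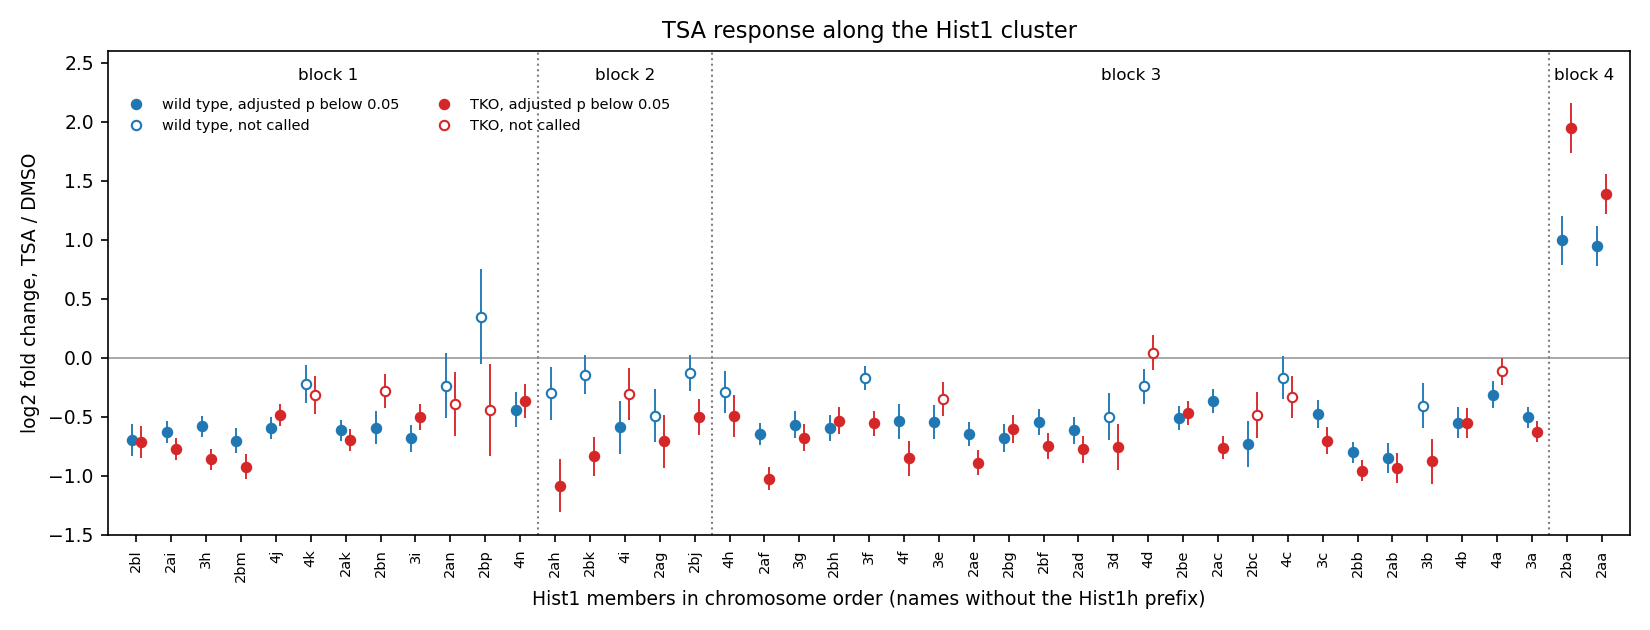
Log2 fold change with TSA (y axis, ± SE) of the 43 tested Hist1 members in chromosome order (x axis) in wild type and TKO, with filled points for an adjusted p below 0.05 and dotted lines between blocks. Values of the first 3 blocks lie mostly between -0.2 and -1.1, and the 2 genes of block 4 lie at 0.94 to 1.95.

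With TSA, divergent neighbours changed in the same direction wherever both were called. Of all 55 tested members, 34 fell and 4 rose in wild type and 37 and 5 in TKO. The agreement of neighbours was not tested against these shares. Within 1000 bases of each other lie 12 divergent pairs, where the minus-strand member ends before the plus-strand member starts. Of these, 11 are an H2A beside an H2B gene. Members annotated on both strands and pairs that point towards each other, such as Hist2h2ab and Hist2h2ac, were left out. With TSA in wild type both members fell in 5 pairs, both rose in 1, a single member was called in 3 and neither in 3. In TKO the counts were 6, 2, 3 and 1, and in no pair did the members change in opposite directions by the threshold. The pair of Hist2h2ac and Hist2h2be came nearest to it, since Hist2h2ac fell while Hist2h2be, an H2B gene with an annotated exon of 2618 bases, was at 0.63 ± 0.27 in wild type and 0.33 ± 0.24 in TKO (edgeR adjusted p 0.0742 and 0.257). Hist2h2be was scarce, at 2.00 and 2.19 CPM in wild type cells with DMSO and 2.75 and 3.74 with TSA, and in TKO at 3.83 and 4.29 with DMSO and 4.94 and 5.27 with TSA, and no TSA library overlapped a DMSO library of its genotype. Between genotypes a single member was called in 4 pairs in DMSO and 2 in TSA, and in no pair both. There Hist2h2ac and Hist2h2be were at -0.31 and 0.95 (called) in DMSO, and at -0.42 (called) and 0.66 in TSA.

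Members with short annotated exons had the larger median fall. The 42 tested members with up to 600 exon bases had median log2 fold changes with TSA of -0.55 in wild type and -0.69 in TKO, and the 13 longer ones of -0.37 in each. Of the 42 shorter members, 27 fell in wild type and 30 in TKO, and of the 13 longer, 7 and 7. The shares of all genes tested that fell were 25.9% in wild type and 27.9% in TKO. Exon length is summed over annotated parts, and among the longer Hist1h4n, Hist1h2be and Hist1h2bc have 2 parts each, those of Hist1h4n on both strands. Hist3h2a, Hist3h2ba, Hist2h2be, Hist2h3c1, Hist2h3c2 and Hist4h4 are among the longer. The counts do not show which part of an exon the reads came from.

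The comparison of TKO with wild type asks what the lack of DNA methylation does to these genes, and its calls were few. In DMSO, 7 of 55 members were lower in TKO and 2 higher, where 10.7% of all genes tested were lower and 9.62% higher. The median of the members was -0.09 and that of all genes -0.01. In TSA, 8 members were lower and 3 higher, against 8.38% and 10.0% of all genes, with a median of -0.18 against 0.00. Of the members lower in DMSO, Hist4h4 and Hist2h4 were also lower in TSA, and Hist2h3c2 was higher in both. Summed mesenchymal and trophoblast markers were lower in TKO as given above. In DMSO 5 of 6 primitive endoderm markers and 5 of 12 stem cell markers were higher in TKO, and none of them lower. In TSA 3 and 5 were higher, and 1 stem cell marker was lower. The part of these markers in the differences was not tested.

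Of the 7 members lower in TKO in DMSO, 3 were H4, 1 H2A, 2 H2B and 1 H3 genes. Of the 8 lower in TSA, 2 were H4, 4 H2A, 2 H2B and 0 H3 genes. The 55 tested members hold 12 H4, 14 H2A, 17 H2B and 12 H3 genes, and the classes were not tested against each other. Over all genes tested, 10.7% were lower in TKO in DMSO and 8.38% in TSA. The H4 gene Hist4h4 was at 294.3 and 268.8 CPM in wild type cells with DMSO and 240.9 and 215.3 with TSA, and in TKO at 199.9 and 189.8 with DMSO and 163.2 and 165.8 with TSA. No TKO library reached the level of a wild type library. Between genotypes the log2 fold change was -0.53 ± 0.09 (SE) in DMSO and -0.47 ± 0.09 in TSA, with edgeR adjusted p of 0.00255 and 0.00591. The call in DMSO held in every alternative, and that in TSA was lost without wild type TSA replicate 1 (edgeR adjusted p 0.0786). Hist4h4 also fell with TSA in wild type (-0.30, edgeR adjusted p 0.0173) and TKO (-0.24, adjusted p 0.0412), but both of these calls were lost when libraries were scaled by total counts alone. The call in wild type was also lost without wild type DMSO replicate 1 or TSA replicate 2, and that in TKO without any TKO library or wild type TSA replicate 2 (edgeR adjusted p up to 0.164 and 0.184).

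Hist2h4, chosen after its values were seen, was at 112.7 and 108.4 CPM in wild type cells with DMSO and 69.7 and 64.0 with TSA, and in TKO at 90.5 and 86.8 with DMSO and 51.5 and 47.4 with TSA. The 4 groups did not overlap, and the log2 difference between TKO and wild type was -0.32 ± 0.09 in DMSO and -0.44 ± 0.10 in TSA (edgeR adjusted p 0.0356 and 0.0108). Its call in DMSO was lost with no filter on low counts, with DESeq2 and with only the 4 libraries compared, and without either TKO DMSO library, wild type DMSO replicate 1 or either wild type TSA library. In DMSO alone, Hist1h2ba (-0.69), Hist1h4d (-0.47), Hist1h2bn (-0.46), Hist1h3e (-0.45) and Hist3h2a (-0.32) were lower in TKO. Without TKO DMSO replicate 2 the only member called lower in DMSO was Hist4h4. Hist1h2ba was also lost without wild type DMSO replicate 2 or TKO DMSO replicate 1, Hist1h4d without replicate 1 of wild type DMSO or TSA, Hist1h2bn without either wild type DMSO library, Hist1h3e without any of the other DMSO and wild type libraries, and Hist3h2a without any library except wild type DMSO replicate 1, with edgeR adjusted p of up to 0.293 for Hist1h2ba, 0.322 for Hist1h4d, 0.264 for Hist1h3e and 0.247 for Hist3h2a. In TSA alone, Hist2h2ab (-0.67), Hist3h2ba (-0.47), Hist1h2af (-0.43), Hist2h2ac (-0.42), Hist1h2bb (-0.35) and Hist1h2ae (-0.33) were lower in TKO.

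The members higher in TKO with TSA were the H3 genes Hist2h3c2 and Hist2h3c1 and the H4 gene Hist1h4a. Hist2h3c2 was at 4.64 and 3.32 CPM in wild type cells with DMSO and 4.09 and 5.03 with TSA, and in TKO at 7.18 and 7.20 with DMSO and 10.1 and 8.91 with TSA. No wild type library reached the level of a TKO library, with log2 fold changes of 0.85 ± 0.23 (SE) in DMSO and 1.07 ± 0.22 in TSA (edgeR adjusted p 0.0247 and 0.0074). Hist2h3c1 was at 5.42 and 9.88 CPM in wild type cells with DMSO and 4.15 and 5.71 with TSA, and in TKO at 7.39 and 7.42 with DMSO and 9.06 and 10.4 with TSA. Its wild type DMSO libraries lay on either side of the TKO DMSO libraries, with a log2 fold change of -0.04 in DMSO and 0.98 ± 0.27 in TSA (edgeR adjusted p 0.942 and 0.0289). Both genes are scarce, and reads of near-identical H3 copies may not be divided correctly between them.

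Hist1h4a was at 146.7 and 151.0 CPM in wild type cells with DMSO and 117.8 and 122.0 with TSA, and in TKO at 158.6 and 203.1 with DMSO and 165.8 and 167.7 with TSA. The TKO libraries were above the wild type libraries of the same treatment, with log2 fold changes of 0.28 ± 0.11 in DMSO, which was not called, and 0.48 ± 0.11 in TSA (edgeR adjusted p 0.102 and 0.0139). The higher call of Hist2h2be in DMSO (0.95 ± 0.27, edgeR adjusted p 0.0289) was lost without any of the 4 DMSO libraries in turn, with adjusted p of 0.0616 to 0.145, and that of Hist2h3c2 in DMSO without any of them but wild type replicate 1 (0.0923 to 0.108). All 11 calls between genotypes in TSA were lost without wild type TSA replicate 1, 9 of them without TKO TSA replicate 2, 7 without TKO TSA replicate 1 and 4 without wild type TSA replicate 2. The call of Hist1h2ae was also lost with DESeq2 and without either TKO DMSO library.

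**Figure D5:**
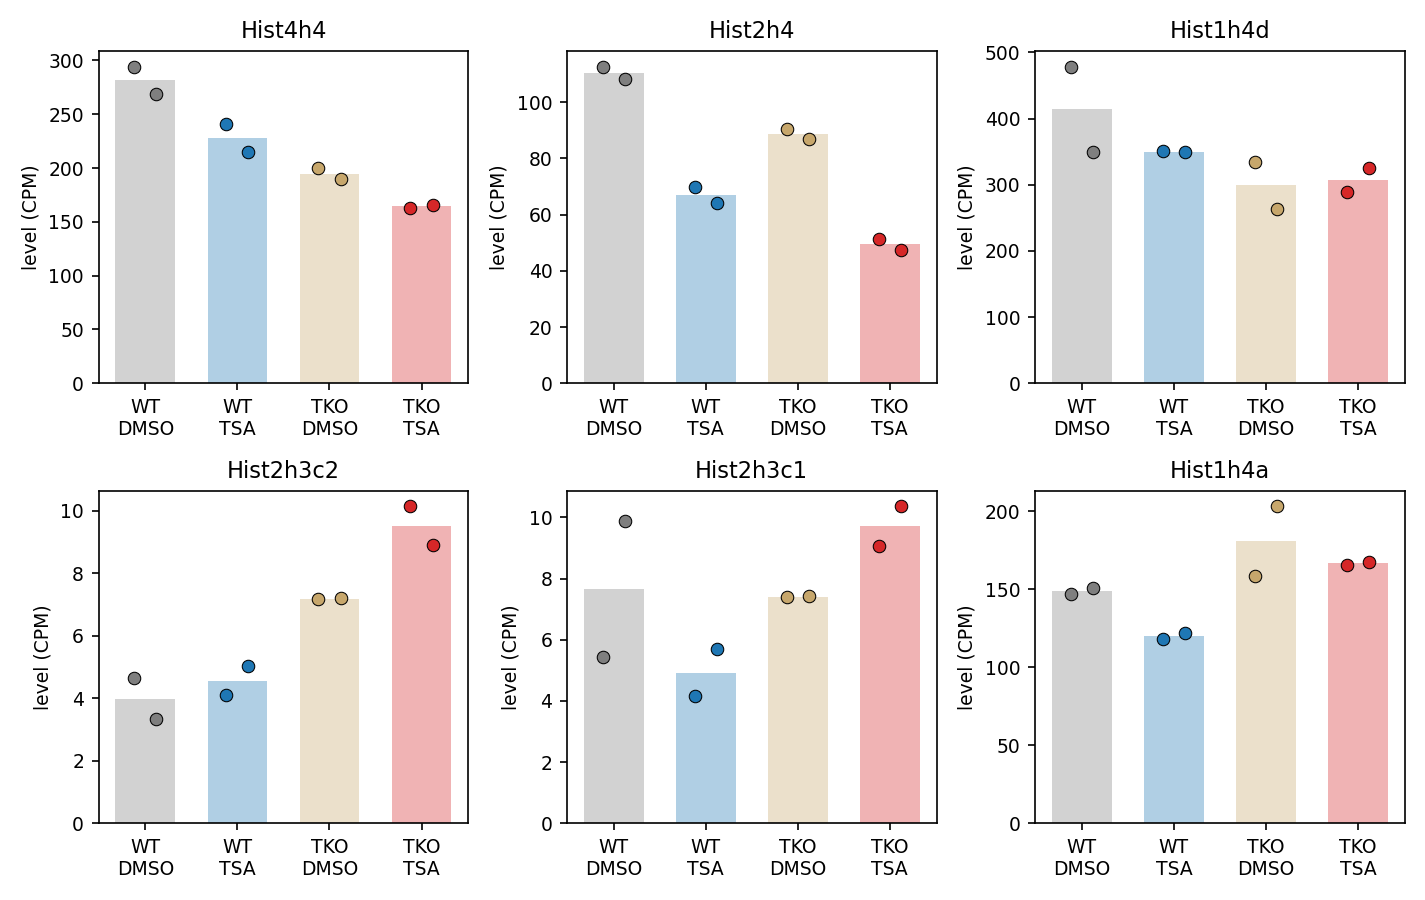
Levels (CPM, axes from 0) of 6 core histone genes in the 4 groups, with points for libraries and bars for their mean. Hist4h4 is at 163.2 to 199.9 CPM in TKO and 215.3 to 294.3 in wild type, and Hist2h3c2 is at 7.18 to 10.1 in TKO and 3.32 to 5.03 in wild type.

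The windows before the starts of these genes differ in CG content. Among the 48 tested members with a promoter sequence, Hist1h4a, Hist2h3c1 and Hist2h3c2 had the most CG dinucleotides, 27, 21 and 20, and these were the 3 members higher in TKO with TSA. Hist1h4k followed with 16 CG and a log2 fold change of -0.13, and Hist1h2an, Hist1h3g and Hist1h4j, with 15 each, were at 0.39, -0.28 and -0.11, none of them called. In DMSO, Hist1h4a, Hist2h3c1 and Hist2h3c2 were at 0.28, -0.04 and 0.85 in TKO against wild type, and only Hist2h3c2 was called. Hist1h3e, with 14 CG, was called lower in TKO in DMSO (-0.45). Hist2h2be, higher in TKO in DMSO, had no promoter sequence and is not among the 48. The windows of Hist2h3c1 and Hist2h3c2 both have 71.2% G and C and none of the 3 motifs. Since reads may be wrongly divided between these near-identical copies, the 2 genes may not be separate cases. As given above, the calls in TSA did not hold without wild type TSA replicate 1. The relation with CG count in TSA was noticed after the values were seen, and DNA methylation at these windows was not analysed here.

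The interaction, by how much the response to TSA in TKO exceeds that of wild type cells, was called for 0 of 55 members by edgeR, where 0.879% of all genes were called higher and 0.468% lower, and 8 members had an unadjusted p below 0.05. The largest difference was that of the H3 gene Hist2h3c1 at 1.02 ± 0.39 (SE, edgeR adjusted p 0.248). Hist1h2ba had a difference of 0.95 ± 0.30 with an adjusted p of 0.161. It was the only member called with DESeq2, with no filter on low counts, or with the replicate number as a block. Hist1h2ah had a difference of -0.79 ± 0.32 (edgeR adjusted p 0.28) and was called without TKO TSA replicate 1.

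Genes of the S-phase programme fell together with the core histone genes. For comparison, 25.9% of all genes tested fell and 27.0% rose with TSA in wild type, and 27.9% and 30.8% in TKO. Of 26 S-phase genes, 19 fell and 1 rose with TSA in wild type, and 18 fell and 2 rose in TKO, with medians of -0.52 and -0.64. They include Gins2 (-1.07 and -1.32) and Mcm2 (-0.84 and -1.05), subunits of the replicative helicase complex. Per 100 counts of these 26 genes, the core histone genes had 100.4 and 97.9 counts in wild type cells with DMSO and 104.4 and 110.5 with TSA, and in TKO 89.2 and 89.5 with DMSO and 98.1 and 95.4 with TSA. In this ratio both TSA libraries were above both DMSO libraries of their genotype, so the summed histone counts fell less than those of the S-phase genes. The part of the S-phase genes in the fall of the histone genes was not tested. Of the 6 H1 genes of Hist1, 5 fell and Hist1h1t rose in each genotype, and Hist1h1d fell the most (-1.01 and -1.21).

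Factors that act on histone genes and their transcripts changed unevenly with TSA. Of 16 genes of histone transcription and S-phase control, 7 fell and 2 rose in each genotype. Among all genes tested, 25.9% fell and 27.0% rose in wild type, and 27.9% and 30.8% in TKO. The lists were not tested against these shares. Pou2f1, which binds the octamer, fell by 0.80 in wild type and 1.14 in TKO on the log2 scale (edgeR adjusted p 0.000936 and 7.4e-05), and Npat, the coactivator of histone genes, was at 0.05 and -0.05 and was not called. Ccne1, cyclin E1, rose by 0.29 in wild type and 0.69 in TKO (edgeR adjusted p 0.0319 and 0.00017). Of 23 genes of histone mRNA 3′ processing, 10 fell and 2 rose in wild type and 9 fell and 4 rose in TKO. Slbp, which binds the stem-loop, was at -0.06 in wild type (edgeR adjusted p 0.609) and rose by 0.35 in TKO. Zfp473, a component of the U7 processing complex, fell by 0.35 in wild type and 0.74 in TKO (edgeR adjusted p 0.0206 and 0.000227).

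Among 18 genes of histone mRNA decay, 9 fell and 1 rose in wild type and 8 fell and 3 rose in TKO, with Lsm3 (-0.79 and -1.07) and Pnrc2 (-0.83 and -0.98) among those that fell. Of 22 chaperone and assembly genes, 12 fell and 3 rose in wild type and 10 fell and 4 rose in TKO. The shares of all genes tested were 25.9% lower and 27.0% higher in wild type, and 27.9% and 30.8% in TKO. Nasp, which carries soluble H3 and H4, fell by 0.85 and 0.91. Without DNA methylation, in DMSO, 4 of 23 genes of 3′ processing were lower in TKO, among them Slbp (-0.37, edgeR adjusted p 0.0162), and none of the 18 decay genes was called. In that comparison 10.7% of all genes tested were lower and 9.62% higher.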

How the data were processed

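Total RNA of the 8 libraries was depleted of ribosomal RNA and made into strand-directional paired-end libraries, per the labels' protocols. The authors deposited raw read counts per gene with exon coordinates and exon length in bases, and TopHat2 2.0.13, featureCounts 1.4.5-p1, edgeR 3.22.3 and mm10 are named in the submitters' processing notes. Whether strand was used in counting and how reads with several matches were treated is not given in the sources used here.

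The count test was that of edgeR 4.0.16 (R 4.3.3; filterByExpr, TMM, quasi-likelihood, a mean for each of the 4 groups, 4 residual degrees of freedom, two-sided). The fit shrank the spread of each gene towards a trend over all genes tested, which adds to the 4 residual degrees of freedom. Benjamini-Hochberg adjustment ran over all 15822 genes tested, and calls needed an adjusted p below 0.05. DESeq2 1.42.0 was an alternative. Levels are TMM-scaled CPM. The SE of a log2 fold change is approximate, being its size divided by the root of F. The script was checked on simulated counts. Replicates of a group differed beyond sampling noise (chi-square per degree of freedom 5.28 to 12.2). Floors of 3 counts cover counting error only, since reads without molecular identifiers are not independent molecules.

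The members and the gene lists were chosen with earlier results of these data known. Named members are the 2 most abundant of each class, per contrast the 3 largest increases and decreases among called members whose mean reached 1 CPM and whose groups do not overlap, the Hist3 and Hist4 genes and the testis-type pair, and at most 5 called genes of each other list by size of change. Other genes named, including Slbp, Npat, Hist2h4 and those of highest CG count, were chosen after their values were seen. Alternatives changed the scaling, the filter, the tool, the libraries fitted and the replicate block. Promoter sequences are from RefSeq (GRCm38.p6). Protein sequences were not used here.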

Additional observations from a re-analysis of the deposited data

How the results depend on the processing

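When libraries were scaled by total counts alone, the median log2 fold change of all genes with TSA moved from 0.01 to 0.22 in wild type and from 0.04 to 0.19 in TKO, and the summed core histone level moved from -0.40 to -0.19 and from -0.44 to -0.29. With the upper quartile the sums were -0.25 and -0.36. Under total counts 26 members fell and 6 rose in wild type. For called results of genes named by the rule, none of the alternative values changed direction, and 612 kept their call and 93 lost it. Values that were not called were not followed through the settings.

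Calls between genotypes depended most on the settings. Members lower in TKO in DMSO numbered 7, but 4 with total counts, 3 with the upper quartile, 4 with only the 4 libraries compared, and 1 to 6 without 1 library. Members higher in DMSO numbered 2, but 1 with DESeq2 and 0 to 3 without 1 library. In TSA, those lower ranged from 0 to 11 and those higher from 0 to 3 without 1 library, around 8 and 3. The count of 5 members that rose with TSA in TKO ranged from 4 to 6 where each group kept its 2 libraries, and was smaller still in some runs without 1 library. The interaction, with 0 calls, gave 1 higher with no filter and with DESeq2, and 0 to 1 lower without 1 library. Leaving out a library leaves its group with 1, which is assumed to vary like the others. The causes were not tested.

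Deviations of libraries with the same replicate number had correlations of 0.0586 to 0.366 between groups (6 pairs), all of them positive. The main fit had no replicate block, since the titles do not say what the number stands for. With the block, 12 members were called between genotypes in DMSO against 9 without it, and 17 against 11 in TSA. With the replicate block, 13 members were lower in TKO in TSA and the interaction had 1 call. Genes of few counts, such as Hist2h2be and Hist2h3c2, are limited by depth.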

Other observations

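Replacement histones, which are also made outside S phase and were in no comparison above, moved in both directions with TSA. Of 10 tested genes, 4 fell and 1 rose in wild type, where 25.9% of all genes fell and 27.0% rose, and 6 fell and 2 rose in TKO, where 27.9% fell and 30.8% rose. Their median log2 fold changes were -0.33 and -0.31, and their difference from the replication-dependent genes was not tested. H3f3b, which encodes histone H3.3, rose by 0.50 on the log2 scale in wild type and 1.05 in TKO (edgeR adjusted p 0.00264 and 2e-05), whereas H3f3a, which encodes the same protein, fell by 0.76 and 0.87. H2afz, which encodes H2A.Z, fell by 0.87 and 0.61, and H2afy2, a macroH2A gene, fell by 1.56 and 1.55. With TSA, H3f3b was also higher in TKO than in wild type (0.76, edgeR adjusted p 0.000978).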
